A study of Mus musculus with 16 samples.

Results

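Genes for 6 Wnt ligands (Wnt2, Wnt9b, Wnt9a, Wnt5a, Wnt5b and Wnt11) and for the 4 R-spondins (Rspo1, Rspo2, Rspo3 and Rspo4) were followed in CD31-sorted endothelial cells of mouse liver and lung. The 10 genes were taken by symbol from 37991 gene entries, and all 10 were present in the read count tables of both tissues. In liver, Wnt2, Wnt9b and Rspo3 stood far above the other members. All 3 were lower in every pair of libraries when endothelial beta-catenin was activated, as were 11.9% of all genes tested. In lung the highest group mean of any member was 12.8 CPM (reads per 1000000 reads of the library total).

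Wnt ligands are secreted lipid-modified proteins that bind Frizzled receptors on the same or neighbouring cells, and the canonical branch of the pathway stabilises beta-catenin, which then acts with TCF/LEF factors on target genes. R-spondins do not activate Frizzled themselves. They bind LGR receptors and the ubiquitin ligases RNF43 and ZNRF3, which otherwise remove Frizzled from the cell surface, and so make a cell more sensitive to Wnt. In liver, endothelial cells around the central vein are a known source of Wnt2, Wnt9b and Rspo3 for hepatocytes, whose pericentral gene programme depends on these signals.

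The 16 libraries came from adult mice and formed 4 groups of 4, a control and a GOF group from each organ. Every mouse carried the Rosa-Bcat-GOF allele, from which activated beta-catenin can be switched on, in heterozygous form (Rosa-Bcat-GOF/+). GOF mice also carried VE-Cadherin-CreERT2, an inducible recombinase expressed from an endothelial promoter, and control mice did not, so the Cre transgene and activated beta-catenin cannot be told apart. The design gives biological samples without saying whether animals were pooled, and the sources used here do not give how and when Cre was induced. Libraries carry letters that recur in both genotypes, of which B, E and F occur in both organs, G is found for liver, and D for lung.

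Library totals lay between 22815467 and 37127150 reads. Summed reads of 10 endothelial marker genes came to 13618 to 16388 CPM in liver control, 13929 to 15669 in liver GOF, 11314 to 15240 in lung control and 10054 to 15193 in lung GOF, with every marker detected in each group. Transcripts of other cells were present too: alveolar epithelial markers summed to 1964 to 14053 CPM in lung control, and hepatocyte markers to 790.1 to 4167 CPM in liver control. Ctnnb1, which encodes beta-catenin, averaged 835.8 ± 135.3 CPM in liver control against 774.3 ± 127.4 CPM in liver GOF (SD, n = 4 each). The lung means were 651.9 ± 38.1 CPM for control and 662.1 ± 80.1 CPM for GOF, and it passed no genotype test. The beta-catenin target Axin2 was higher in GOF in 4 of 4 liver pairs, as were 12.3% of all genes tested. In lung it was at 16.4, 9.15, 11.5 and 16.7 CPM in control B, E, F and D. The GOF libraries of these letters held 29.8, 18.9, 28.8 and 20.4 CPM. Axin2 was not called in lung (edgeR, with or without pairing).

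Promoter sequence was available for 7 of the 10 members, from RefSeq on build GRCm38.p6, as 250 bases before each annotated start. This build is not that of the deposited counts (mm9). The windows of 3 members are printed. They are those of Wnt2 and Wnt9b, which were high in liver, and 1 of Wnt11. By edgeR without pairing, Wnt11 was the 1 member called higher in control lung than in control liver, a call not kept in every alternative. For Wnt2 (chr6:18030586-18030695, minus strand) only the 110 bases from -250 to -141 lie outside the annotated exons. The windows of Wnt9b (chr11:103749822-103750071, minus strand) and Wnt11 (chr7:98834862-98835111, plus strand) overlap no exon. Capitals in the Wnt11 sequence mark a match to the TCF/LEF letters described below, and the other Wnt11 window in RefSeq (chr7:98838595-98838844, plus strand), which is not printed, holds no match.
Wnt2: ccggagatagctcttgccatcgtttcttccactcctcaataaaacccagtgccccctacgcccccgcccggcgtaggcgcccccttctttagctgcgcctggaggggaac
Wnt9b: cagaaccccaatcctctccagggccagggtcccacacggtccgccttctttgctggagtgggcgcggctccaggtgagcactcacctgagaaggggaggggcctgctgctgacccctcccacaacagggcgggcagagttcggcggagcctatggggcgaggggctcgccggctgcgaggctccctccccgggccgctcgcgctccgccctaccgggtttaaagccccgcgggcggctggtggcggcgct
Wnt11: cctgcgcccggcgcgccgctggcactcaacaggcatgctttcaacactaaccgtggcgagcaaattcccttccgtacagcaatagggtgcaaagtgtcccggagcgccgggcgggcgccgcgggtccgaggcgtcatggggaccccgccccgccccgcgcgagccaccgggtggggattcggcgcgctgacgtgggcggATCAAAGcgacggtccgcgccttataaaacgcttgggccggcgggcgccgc

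The letters CTTTGAA, followed by the variants CTTTGAT, then also CTTTGTA, and last CTTTGTT, searched on both strands as forms of the TCF/LEF motif, occurred in 2 of the 10 windows of members, 1 of Wnt11 and 1 of Wnt5b, and in 14.8% of all 32851 windows of that length. The GATA letters AGATAA or, in a second form, TGATAA occurred in 1 of the 10, that of Wnt2 in the exonic stretch not printed here, and in 16.6% of all windows. The windows of Wnt9b, Wnt9a, Rspo1 and Rspo4 held neither set of letters, which says only that those letters are not in these bases.

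Control liver endothelium carried a few very abundant transcripts and a set of scarce ones. Rspo3, the R-spondin of central-vein endothelium, stood at 1749, 1229, 1330 and 1284 CPM in libraries B, E, F and G. Wnt9b stood at 1274, 606, 942 and 784 CPM in the same libraries, and Wnt2 at 503, 452, 563 and 344 CPM. Together these 3 genes took between 0.229% and 0.353% of all reads of a control liver library.

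Per length, on the RPKM scale (CPM per kilobase of annotated exon), the order in control liver was Rspo3 at 452.4 ± 77.0, Wnt2 at 206.5 ± 41.2 and Wnt9b at 199.5 ± 62.8 (SD, n = 4 each). The ranges of Wnt2 (152.7 to 249.7 RPKM) and Wnt9b (134.2 to 282 RPKM) overlapped, and that of Rspo3 (397.6 to 566.1 RPKM) lay above both. Of 30087 genes with a length, Rspo3 ranked 75th, Wnt2 218th and Wnt9b 228th by mean RPKM. Rspo1, which signals through the same receptors as Rspo3, followed at 2.02 ± 1.24 RPKM. Wnt5b, Wnt5a, Wnt9a and Wnt11 lay at means of 0.203 to 0.322 RPKM with overlapping ranges, so their order is not resolved. Rspo2 and Rspo4 had 0 reads in all 8 liver libraries, which allows at most 0.0248 CPM over the control libraries and 0.0254 CPM over the GOF libraries (3 reads over a group, counting error only).

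**Figure D1:**
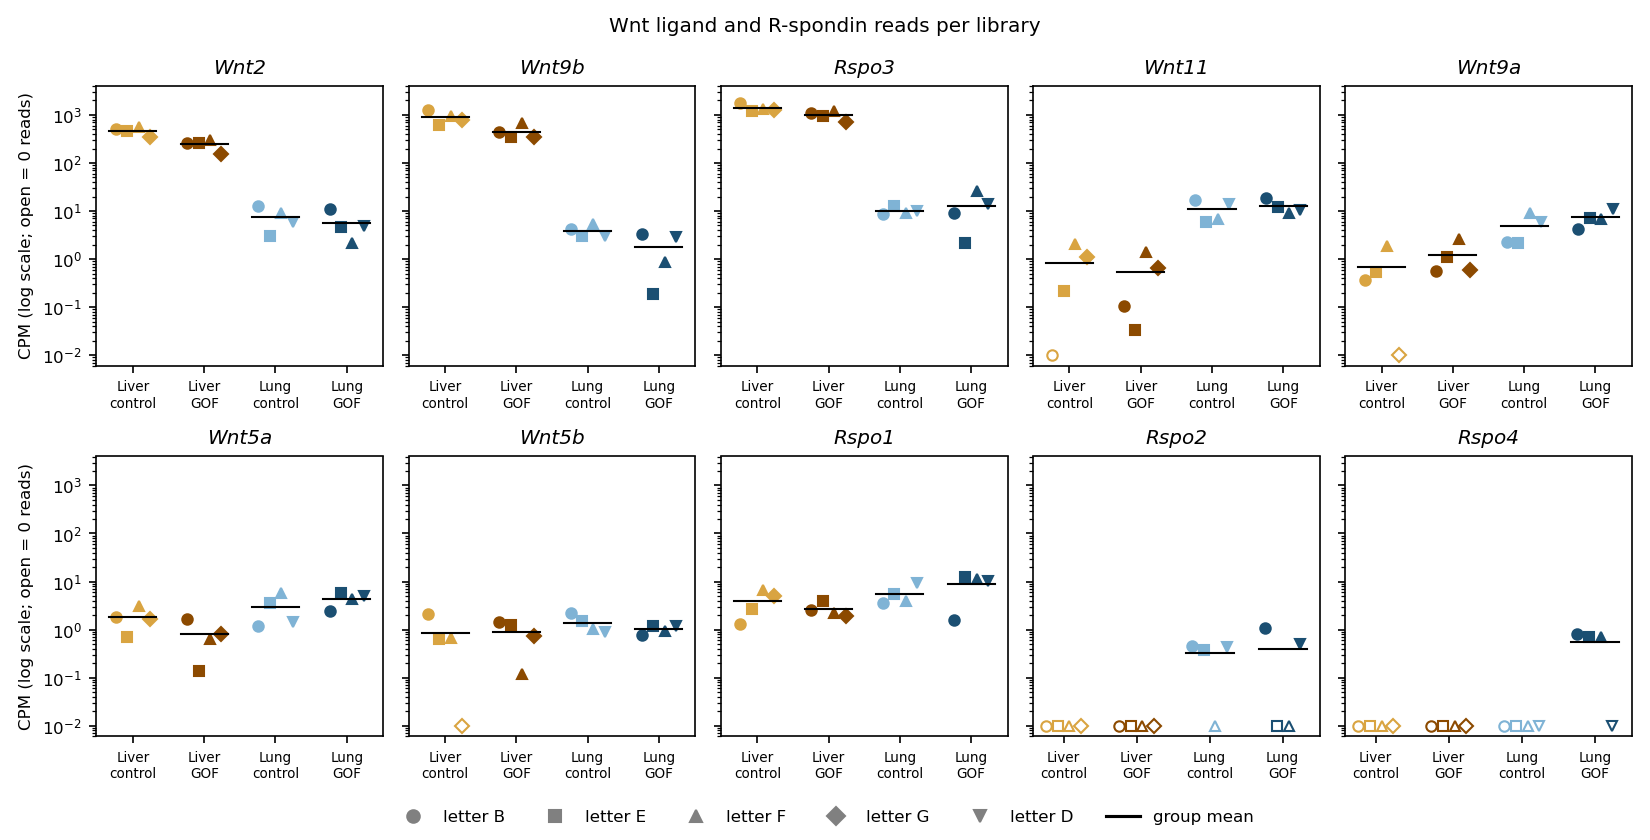
Level of each member in every library, in CPM on a log scale, with 1 marker shape per letter and the group mean as a bar. Open symbols at the bottom stand for 0 reads. Wnt2, Wnt9b and Rspo3 lie between 152 and 1749 CPM in liver and at or below 25.7 CPM in lung.

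In control lung the same 3 transcripts were scarce. Rspo3 was at 8.49, 13, 9.17 and 9.95 CPM in lung libraries B, E, F and D, which put it 126-fold lower than in control liver (log2 fold change -6.98 ± 0.227 SE, adjusted p = 1.02e-07, edgeR's quasi-likelihood test with Benjamini-Hochberg adjustment over all genes). Wnt9b was at 4.32, 3.07, 5.32 and 2.95 CPM, 211-fold lower (-7.72 ± 0.312, adjusted p = 5.41e-07). Wnt2 was at 12.7, 2.98, 9.07 and 5.83 CPM, 56.5-fold lower (-5.82 ± 0.435, adjusted p = 8.58e-06). No lung library came near the lowest liver library for any of the 3; non-overlapping groups with lung lower were found for 17.5% of all genes tested.

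Wnt11, a ligand mostly studied for signalling that does not run through beta-catenin, went the other way. It had 0, 0.215, 2.04 and 1.10 CPM in control liver B, E, F and G and 16.7, 5.88, 6.75 and 13.7 CPM in control lung B, E, F and D, with no overlap between the tissues. Its log2 fold change was 3.80 ± 1 (adjusted p = 0.0174, edgeR), and the call was lost without lung control B. With the letter as a term, over the 3 letters that both tissues share, it was 4.76 ± 1.53 (adjusted p = 0.0937). Whether a letter links libraries of different tissues was not tested. Here and in later comparisons of tissues the letter term leaves libraries G and D without weight, so a call lost with it may reflect fewer libraries.

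Wnt9a had 0.366, 0.539, 1.86 and 0 CPM in control liver and 2.32, 2.17, 9.27 and 5.90 CPM in control lung. The groups did not overlap, and the test was not passed (2.89 ± 1.07, adjusted p = 0.0759, edgeR), although it was passed without liver control F and by DESeq2, which called 27.5% of all genes. Non-overlapping groups with lung higher were found for 14.1% of all genes tested. Wnt5a (0.82 ± 0.706), Wnt5b (0.87 ± 1.17) and Rspo1 (0.63 ± 0.569) overlapped between the tissues. In all, 4 of the 8 members tested were called between control tissues, where 24.9% of all genes tested were called, and 3 with the letter term, where 13.1% were.

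Rspo2, which had no liver reads, had 38 reads over control lung, in 3 of 4 libraries and at 0.319 ± 0.216 CPM, at least 12.8-fold above the liver limit of 3 reads. Rspo4 had 0 reads in control lung as in liver. Per length, control lung held Wnt2 (3.39 ± 1.85 RPKM), Rspo3 (3.28 ± 0.64), Rspo1 (2.90 ± 1.41), Wnt11 (2.60 ± 1.28) and Wnt9a (1.48 ± 1.02) within overlapping ranges. Lower means were those of Wnt9b (0.867 ± 0.249), Wnt5b (0.529 ± 0.232) and Wnt5a (0.384 ± 0.269), whose ranges also overlapped. The ranges of Wnt9a and Wnt9b overlapped as well, so the order of these 2 is not resolved. The highest rank among 30087 genes was 8402nd, for Wnt2.

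**Figure D2:**
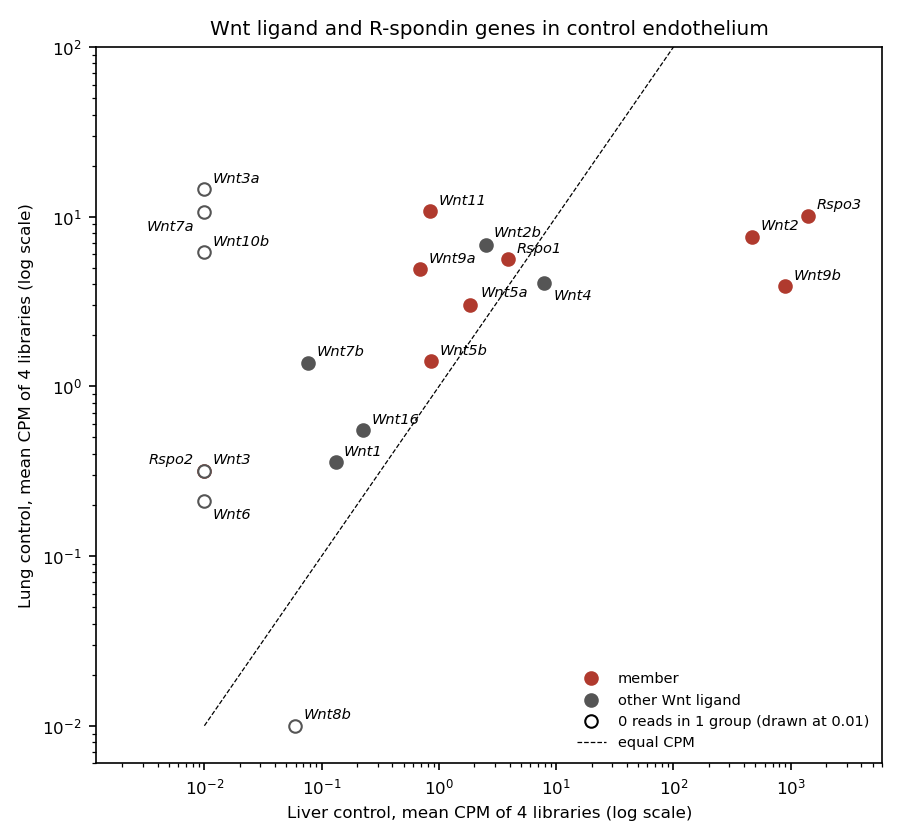
Mean CPM of Wnt ligand and R-spondin genes in control lung against control liver, both on log scales; members are red, other Wnt ligands grey, and open symbols have 0 reads in 1 tissue and are drawn at 0.01. Rspo3, Wnt9b and Wnt2 sit far to the liver side of the dashed line of equal CPM, and Wnt3a, Wnt7a and Wnt10b have lung reads only; genes with 0 reads in both tissues, Rspo4 among them, are not drawn.

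Of 13 other Wnt ligand genes, 6 were tested between the control tissues, and 3 were called higher in lung and 0 lower, where 24.9% of all genes tested were called. Wnt3a, a canonical ligand, was at 14.5 ± 4.27 CPM in control lung (SD, n = 4; 9.07 to 18.4) and at 0 reads in all 8 liver libraries, at least 590-fold higher. Wnt7a was at 10.7 ± 6.09 CPM, at least 426-fold higher, and Wnt10b at 6.17 ± 1.24 CPM, at least 246-fold higher than control liver. Wnt4 and Wnt2b were found in both tissues at means of 2.50 to 7.81 CPM and were not called. Alveolar and airway epithelial markers in control lung summed to 7279 ± 5009 and 1611 ± 714.3 CPM against 10.4 ± 2.43 and 10 ± 6.43 CPM in control liver. Whether the lung reads of these ligands came from such cells was not tested.

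In liver, activation of beta-catenin went with lower Wnt2, Wnt9b and Rspo3. Wnt2 was at 257, 260, 302 and 152 CPM in GOF libraries B, E, F and G against the 503, 452, 563 and 344 CPM of the control libraries of the same letters. Every GOF library lay below every control library. The group means were 465.6 ± 92.8 and 242.6 ± 64.0 CPM (SD, n = 4 each).

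Wnt9b was at 436, 347, 669 and 341 CPM in GOF against 1274, 606, 942 and 784 CPM. It was lower in each of the 4 pairs, as were 11.9% of all genes tested, while the groups overlapped through GOF F and control E. The means were 901.5 ± 283.7 and 448.2 ± 153.5 CPM.

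Rspo3 was at 1097, 939, 1186 and 723 CPM in GOF against 1749, 1229, 1330 and 1284 CPM. All GOF libraries were below all control libraries, by a narrow margin between GOF F and control E. The means were 1398 ± 237.8 and 986.3 ± 203.3 CPM. Groups that did not overlap, with GOF lower, were found for 1.83% of all genes tested. Together the 3 genes took 0.121% to 0.216% of the reads of a GOF liver library.

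Without pairing, no member passed the test in liver (0 of 8 tested by edgeR, where 0.0321% of all genes passed), and 3 members had an unadjusted p under 0.05, as did 6.49% of all genes. The log2 fold changes were -0.93 ± 0.235 for Wnt2 (SE, adjusted p = 0.301), -0.98 ± 0.258 for Wnt9b (adjusted p = 0.326) and -0.49 ± 0.183 for Rspo3 (adjusted p = 0.689). Libraries of 1 letter deviated together across genes, and with the letter as a term all 3 fell, 3 of 8 members, where 2.58% of all genes were called and 1.04% called lower. The median over the 8 members was -0.46 against 0.01 over all genes. Wnt2 was then 1.93-fold lower (-0.95 ± 0.0897, adjusted p = 0.00027), Wnt9b 2.00-fold lower (-1.001 ± 0.147, adjusted p = 0.00466) and Rspo3 1.42-fold lower (-0.50 ± 0.108, adjusted p = 0.0349). DESeq2 without pairing called Wnt2 (adjusted p = 0.0207) and Wnt9b (adjusted p = 0.0201) but not Rspo3 (adjusted p = 0.309), where 0.856% of all genes were called and 0.287% called lower.

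Leaving out any 1 pair kept the paired calls of Wnt2 (-1.02 to -0.88) and Wnt9b (-1.18 to -0.81). The paired call of Rspo3 was lost without pair B (-0.44, adjusted p = 0.0988), pair E (-0.56, adjusted p = 0.0686) or pair G (-0.40, adjusted p = 0.0981), and was kept without pair F. In the authors' deposited table the log2 fold changes were -0.78 for Wnt9b (adjusted p = 0.0222), -0.75 for Wnt2 (adjusted p = 0.0227) and -0.43 for Rspo3 (adjusted p = 0.334).

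**Figure D3:**
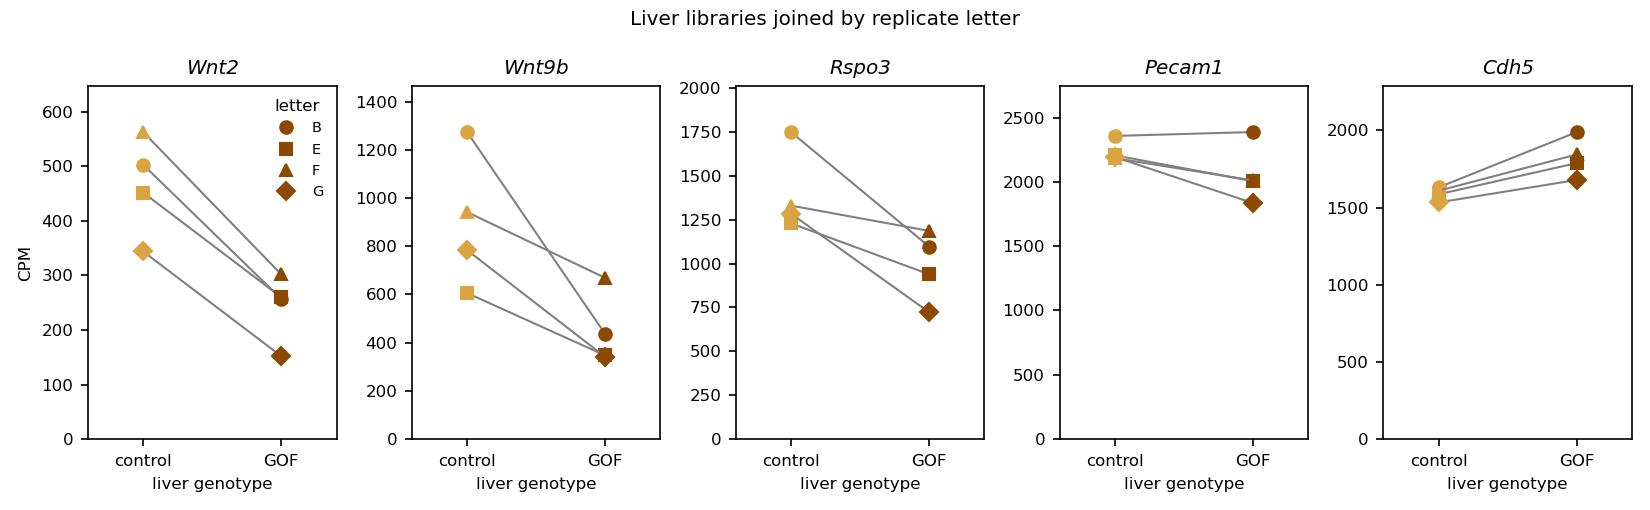
CPM of Wnt2, Wnt9b, Rspo3 and the endothelial genes Pecam1 and Cdh5 in liver, each line joining the control and GOF library of 1 letter; axes start at 0. All lines of the 3 members fall, and Cdh5 is higher in GOF in every pair, as were 12.3% of all genes tested. The lines of Pecam1 run from 2357 to 2387 CPM in pair B and from 2193 to 1835 CPM in pair G.

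The falls were not equal in all pairs. Wnt9b fell most in pair B, to 0.342 of its control value, and least in pair F, to 0.71. Rspo3 was at 0.563 of its control value in pair G and at 0.891 in pair F. Wnt2 kept to a narrower band, from 0.441 in pair G to 0.575 in pair E. Over the same pairs Pecam1, the gene of the sorting antigen, stood at 0.837 to 1.01 of control, and Cdh5, which encodes VE-cadherin, at 1.10 to 1.22. The Cdh5 groups did not overlap, and neither gene was called between liver genotypes (edgeR, with or without pairing). In sorted cells pooled for a library, a smaller share of the cells that make a transcript and less of it in each cell cannot be told apart.

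Averaged over libraries, Wnt9b and Wnt2 fell by a similar factor, though not in every pair. In pair B Wnt9b stood at 0.342 of control and Wnt2 at 0.51, and in pair F at 0.71 and 0.537. The values were 0.573 and 0.575 in pair E and 0.434 and 0.441 in pair G. The ratio of Wnt9b to Wnt2 reads was 2.53, 1.34, 1.67 and 2.28 in control liver B, E, F and G and 1.70, 1.34, 2.21 and 2.24 in GOF. The mean log2 ratio was 0.92 ± 0.42 and 0.87 ± 0.35 (SD, n = 4 each), a difference of -0.05 that was smaller than either spread (exact two-sided permutation test, p = 0.771, smallest possible 0.0286). A test that is not passed does not show that the factors are equal. Rspo3 fell less than Wnt2 in each pair. The ratio of Rspo3 to Wnt2 reads was 3.48, 2.72, 2.36 and 3.73 in control and 4.28, 3.62, 3.92 and 4.76 in GOF, a comparison chosen after its values were seen. The log2 difference was 0.45 (exact two-sided permutation test, p = 0.0571; exact sign-flip test over 4 pairs, p = 0.125, the smallest that 4 pairs allow).

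The scarce members of liver did not pass any test. Wnt5a, a ligand of beta-catenin-independent signalling, was at 1.87, 0.700, 3.10 and 1.67 CPM in control, with 1.69, 0.135, 0.643 and 0.815 CPM in GOF libraries B, E, F and G. It was lower in 4 of 4 pairs, as were 11.9% of all genes tested, and its groups overlapped (-1.19 ± 0.838, adjusted p = 0.889; paired -1.41 ± 0.97, adjusted p = 0.559, edgeR). Wnt9a was higher in 4 of 4 pairs, at 0.366, 0.539, 1.86 and 0 CPM in control, with 0.575, 1.11, 2.57 and 0.590 CPM in GOF, where 12.3% of all genes were higher in every pair. Its change of 0.81 ± 1.21 (adjusted p = 0.969) rested on at most 64 reads a library.

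Wnt5b (0 to 2.09 CPM in control and 0.121 to 1.44 CPM in GOF) and Wnt11 (0 to 2.04 and 0.0338 to 1.37 CPM) overlapped between genotypes. Rspo1 was higher in GOF in pairs B and E and lower in pairs F and G, at 1.28, 2.67, 6.68 and 5.04 CPM in control against 2.51, 3.98, 2.17 and 1.88 CPM. The 95% interval of Rspo1, the narrowest among these scarce members, ran from -1.80 to 0.70 and so held both 0 and a change of the size seen for Wnt2.

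**Figure D4:**
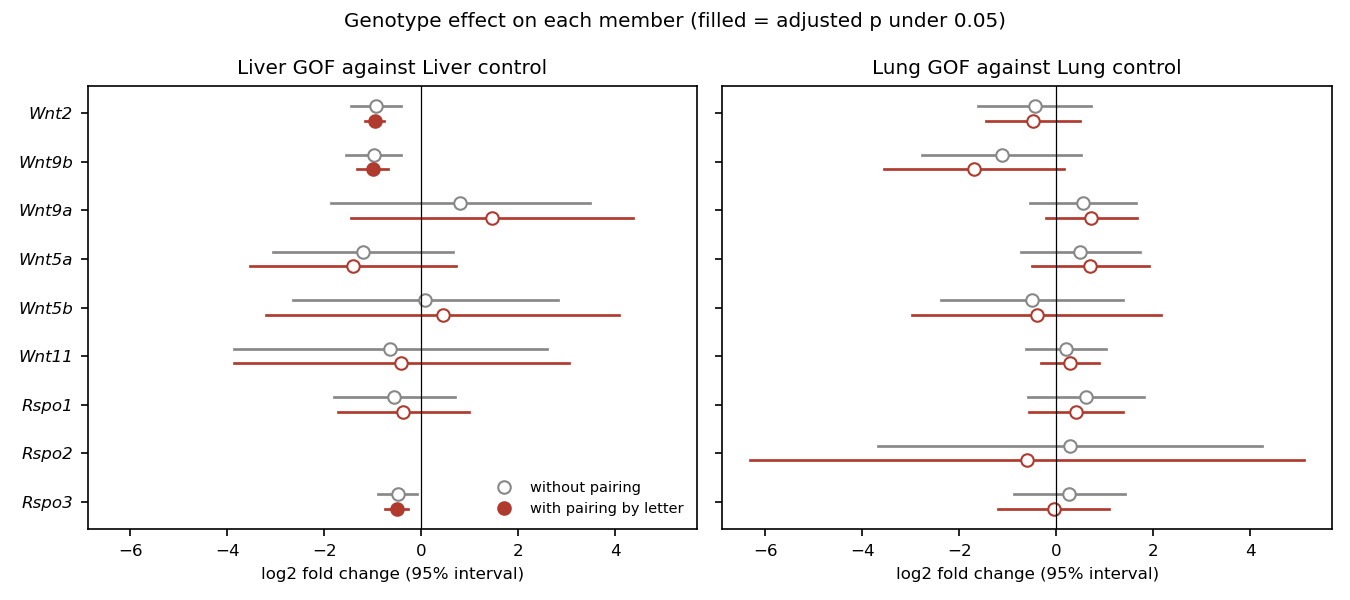
Log2 fold change of GOF over control with its 95% interval for each member tested, in liver and lung, without pairing (grey) and with the letter as a term (red); filled points have an adjusted p under 0.05. Filled points appear only for Wnt2, Wnt9b and Rspo3 in the paired liver fit, and the intervals of the scarce members are several times wider.

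Of 9 genes listed for the central vein and pericentral endothelium, 3 fell and 1 rose in the paired liver fit, where 2.58% of all genes were called and 1.04% called lower, with a median log2 fold change of -0.35 over the list against 0.01 over all genes. Fabp4, a fatty acid binding protein, fell by 0.76 ± 0.0816 (adjusted p = 0.000729), Amigo2, an adhesion protein, fell by 0.69 ± 0.116 (adjusted p = 0.00963) and Ptgs1, a prostaglandin synthase, fell by 0.54 ± 0.11 (adjusted p = 0.027). Selp, which encodes P-selectin, rose by 0.57 ± 0.0937 (adjusted p = 0.00847). Without pairing none of the 9 was called (edgeR), with adjusted p = 0.301 for Fabp4, 0.612 for Amigo2, 0.714 for Ptgs1 and 0.905 for Selp. The paired call of Ptgs1 was lost without pair B, F or G (adjusted p = 0.0544 to 0.0824). Cdh13 (-0.22 ± 0.0825), Kit (-0.35 ± 0.103), Rab3b (-0.35 ± 0.203), Thbd (0.14 ± 0.0843) and Vwf (0.30 ± 0.0809) did not pass. None of the 8 portal and periportal endothelial genes passed in either fit (edgeR), and their paired median was 0.18. In lung the central vein list had 7 negative values among 8 tested and a paired median of -0.34. Amigo2 alone was called in the paired lung fit (-1.09 ± 0.122, adjusted p = 0.0113, edgeR), where 0.0192% of all genes were called. Without pairing Amigo2 was not called in lung (edgeR), and with pairing no gene was called there once pair D was left out. Fabp4 was at -1.38 ± 0.242 in the paired lung fit (adjusted p = 0.156). The paired lung values were -0.475 for Vwf and -0.208 for Selp. For 2 of the 9 genes the paired genotype effect differed between the tissues, where 0.49% of all genes were called. The effect in lung minus that in liver was -0.78 ± 0.13 for Vwf (adjusted p = 0.0207) and -0.78 ± 0.155 for Selp (adjusted p = 0.0471, edgeR). Neither was called without pairing.

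Of 7 listed beta-catenin targets, 3 rose in the paired liver fit, where 2.58% of all genes were called, namely Tcf7 (3.26 ± 0.242), Axin2 (2.03 ± 0.168) and Sp5 (1.34 ± 0.308), and all 7 had positive values, with a median of 2.03. Without pairing only Tcf7 was called (adjusted p = 0.0137), with adjusted p = 0.0836 for Axin2 and 0.301 for Sp5 (edgeR). The unpaired call of Tcf7 was lost without liver control E or F or GOF G (adjusted p = 0.0656 to 0.0897), and the paired call of Sp5 was lost without pair B, E, F or G (adjusted p = 0.078 to 0.161). Axin2 was at 14.7, 6.22, 10.8 and 9.51 CPM in control, with 79.9, 22.1, 34.2 and 42.6 CPM in GOF. Tcf7 was at 4.4, 2.48, 2.34 and 5.3 CPM in control B, E, F and G against 53.9, 17.6, 35.5 and 32.9 CPM in GOF. The largest change of Axin2 was in pair B and that of Tcf7 in pair F, so the targets did not rank the pairs alike. In lung none of the 6 targets tested was called by edgeR in either fit, and all 6 had positive values. Their paired median was 0.79, with Tcf7 at 0.98 ± 0.179 (adjusted p = 0.163) and Axin2 at 0.84 ± 0.214 (adjusted p = 0.362). The paired effect in lung minus that in liver was -2.27 ± 0.313 for Tcf7 (adjusted p = 0.00747, edgeR), where 0.49% of all genes were called. Without pairing edgeR did not call this difference.

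Markers of other cells were summed in the liver groups, and the sums themselves were not tested. No single gene of any marker list was called between liver genotypes without pairing (edgeR). With pairing 2 of 8 hepatocyte, 2 of 9 periportal hepatocyte and 2 of 9 fibroblast genes were called lower. So were 1 of 5 mesothelial and 1 of 5 cholangiocyte genes, where 1.04% of all genes were called lower. Summed genes of the periportal hepatocyte list, 9 of 9 with reads, were at 179.2 ± 82.2 CPM in control (93.9 to 270.1), with 93.7 ± 24.9 CPM in GOF (74.9 to 129.5), lower in 4 of 4 pairs. The same list summed to 129.6 ± 42.4 CPM in control lung, where the hepatocyte list was at 1.72 ± 0.42 CPM, so it is not particular to hepatocytes. Fibroblast, mesothelial and cholangiocyte sums were lower in 4 of 4 pairs too, at means of 668.3, 109.7 and 67.5 CPM in control, with 406.3, 42.7 and 35.0 CPM in GOF. The 8 hepatocyte markers summed to 4167, 790.1, 1864 and 837.5 CPM in control B, E, F and G and to 1902, 644.5, 1084 and 876.5 CPM in GOF.

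The hepatocyte sum was lower in GOF in pairs B, E and F and higher in pair G. Without pair B, which held the highest hepatocyte sum, the paired changes were -0.94 for Wnt2 (adjusted p = 0.00104), -0.81 for Wnt9b (adjusted p = 0.00828) and -0.44 for Rspo3, whose call was lost (adjusted p = 0.0988). The pericentral hepatocyte list averaged 533.5 ± 82.6 CPM for control and 565.1 ± 48.4 CPM for GOF but 796.6 ± 101 CPM in control lung, so it too is not particular to hepatocytes. Stellate markers summed higher with GOF in 3 of 4 pairs (55.4 ± 38.1 and 68.6 ± 50.9 CPM), and the endothelial sum was at 14707 ± 1302 and 14571 ± 814.1 CPM. The part of these other cells in the falls of the members was not tested.

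**Figure D5:**
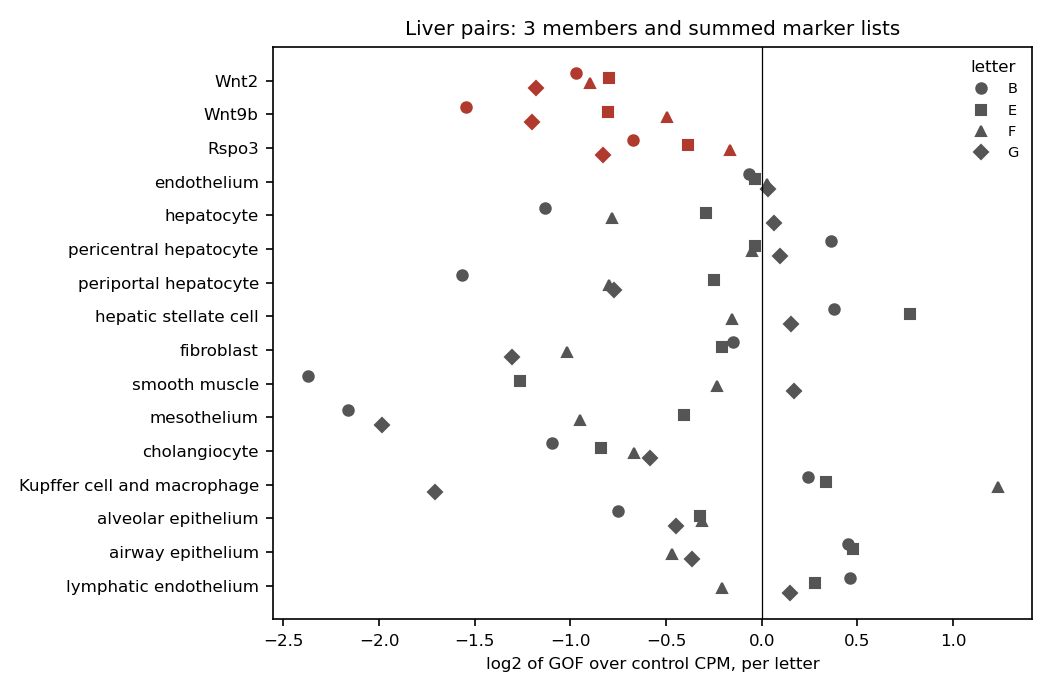
Log2 of GOF over control CPM in each liver pair, with 1 marker shape per letter, for Wnt2, Wnt9b and Rspo3 (red) and for the sums of 13 marker lists (grey). The 3 members lie below 0 in every pair; the endothelial sum lies close to 0, and the periportal hepatocyte, fibroblast, mesothelial, cholangiocyte and alveolar sums lie below 0 in every pair.

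In lung no member passed the genotype test by edgeR without pairing (0 of 9 tested, 0 with an unadjusted p under 0.05, where 0% of all genes passed and 2.18% had such a p), with pairing (0 of 9, where 0.0192% passed) or by DESeq2 (0 of 10, 1 with an unadjusted p under 0.05, where 0.0664% passed). Wnt9b was lower in 4 of 4 lung pairs, at 4.32, 3.07, 5.32 and 2.95 CPM in control B, E, F and D and 3.32, 0.189, 0.884 and 2.84 CPM in GOF, where 5.54% of all genes were lower in every pair. The difference was nearly all in pairs E and F, whose GOF libraries held only 5 and 27 reads of Wnt9b. The value of GOF E lay near the limit of 3 reads, which is 0.113 CPM in that library. The groups overlapped (-1.12 ± 0.756 without pairing, and with pairing -1.69 ± 0.853, adjusted p = 0.849, edgeR).

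Wnt2 in lung GOF was at 10.8, 4.75, 2.19 and 4.99 CPM, inside the control range except for library F (-0.44 ± 0.534). Rspo3 spread widely in lung GOF, at 9.22, 2.11, 25.7 and 14 CPM, with the lowest and the highest lung library both in that group (0.27 ± 0.525). Wnt11 was at 18.6, 12.3, 9.24 and 10.6 CPM in GOF, higher in 3 of 4 pairs (0.20 ± 0.383).

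Wnt9a, at 4.24, 7.17, 6.85 and 11.1 CPM in GOF, was higher in 3 of 4 pairs (0.56 ± 0.5), and so was Wnt5a, at 2.40, 5.66, 4.39 and 4.90 CPM (0.50 ± 0.563). Rspo1 was at 1.57, 12.2, 11.4 and 10.5 CPM in GOF against 3.55, 5.47, 3.92 and 9.52 CPM in control, above the control range in 3 libraries and below it in library B (0.62 ± 0.546). Wnt5b had 0.768 to 1.21 CPM in GOF and 0.871 to 2.24 CPM in control. Summed fibroblast markers in lung averaged 1080 ± 317.6 CPM for control and 1584 ± 515.1 CPM for GOF, higher in 3 of 4 pairs, and their part in these values was not tested.

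The 2 scarcest R-spondins were seen in lung alone. Rspo4 had 0 reads in the 4 control libraries and 26, 19, 21 and 0 reads in GOF libraries B, E, F and D, together at least 21.4-fold above the limit of 3 reads over control lung. It did not pass the filter on low counts, and with no filter its unadjusted p was 0.0244 (adjusted p = 0.827, edgeR). Rspo2 had 12, 13, 0 and 13 reads in control and 35, 0, 0 and 17 reads in GOF.

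Among GOF libraries 3 members were lower and 4 higher in lung than in liver. Wnt2 was 40.1-fold, Wnt9b 229-fold and Rspo3 73.9-fold lower in lung than in liver (log2 fold changes -5.32 ± 0.481, -7.84 ± 0.724 and -6.21 ± 0.643). Wnt11 was 25.1-fold higher in lung (4.65 ± 0.844), Wnt9a 6.30-fold (2.66 ± 0.604), Wnt5a 5.77-fold (2.53 ± 0.717) and Rspo1 3.50-fold (1.81 ± 0.584). These 7 of 8 members were called, where 25.4% of all genes were, and 4 remained with the letter term (Wnt2, Wnt9b, Rspo3 and Wnt11), where 12.5% were. The call of Rspo1 was also lost without liver GOF B, F or G or lung GOF E, F or D, and that of Wnt5a without liver GOF F or G or lung GOF E or D. By DESeq2 without pairing Rspo4, with 0 reads in liver GOF, was called higher in lung GOF too (adjusted p = 0.0238). By edgeR with no filter it was not called (adjusted p = 0.0772).

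Whether the genotype effect differed between the tissues was tested directly. No member was called (0 of 9 by edgeR, 0 with an unadjusted p under 0.05, where 0.0057% of all genes were called and 5.73% had such a p; 0 with pairing, where 0.49% were called, and 0 by DESeq2, where 0.252% were). The effect in lung minus that in liver was 0.49 ± 0.59 for Wnt2, -0.13 ± 0.653 for Wnt9b and 0.76 ± 0.592 for Rspo3. The 95% interval for Wnt2, from -0.76 to 1.73, includes 0 and also a difference as large as the liver effect itself. For Wnt5a, lower in every liver pair and higher in 3 of 4 lung pairs, it was 1.70 ± 0.979 (adjusted p = 0.912; paired 2.11 ± 0.957, adjusted p = 0.455).

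Genes for the secretion and inactivation of Wnt ligands passed no test between groups. Wls, the carrier that takes Wnt proteins to the cell surface, was at 231.3 ± 10.9 CPM in liver control, 209.4 ± 22.6 in liver GOF, 207.8 ± 25.8 in lung control and 203.5 ± 14.5 in lung GOF. Porcn, which attaches their lipid, was at 11.9 to 18.2 CPM on average. None of the 7 genes tested of this list was called in any comparison, with or without the letter term (edgeR). The share of all genes called in these fits ran from 0% between lung genotypes to 25.4% between GOF tissues, both without the letter term. In liver the unpaired 95% interval of the log2 fold change of Wls ran from -0.42 to 0.15.

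Genes through which R-spondins act differed between the tissues. Rnf43 was lower in control lung (6.44 ± 4.19 CPM) than in control liver (34.0 ± 9.65 CPM; -2.31 ± 0.49, adjusted p = 0.00544), and Znrf3 was higher (12.1 ± 5.30 against 3.68 ± 1.28 CPM; 1.83 ± 0.45, adjusted p = 0.0121). Lgr6 had 0 liver reads and 1.04 ± 0.965 CPM in control lung, at least 39.5-fold higher. Lgr4 stood at 5.01 to 8.51 CPM on average in every group. With the letter term only the call of Rnf43 was kept among these control comparisons. None of these receptors and ligases was called between genotypes in either tissue (edgeR, with or without pairing). Gpr124, a Wnt7 co-receptor, rose by 0.38 ± 0.0838 in the paired liver fit (adjusted p = 0.0383), from 171.1 ± 18.5 to 220.5 ± 8.88 CPM. It was not called without pairing (adjusted p = 0.714, edgeR), and the paired call was lost without pair B, E, F or G (adjusted p = 0.0927 to 0.118).

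The genes with patterns most like the 3 abundant members over the 16 libraries were sought among 9583 genes. The measure was the root mean square difference of log2(CPM + 0.5) values, centred on each gene's mean, so the level itself was not compared. For Wnt2 they were Apob (0.626), Ajap1 (0.659) and Pde2a (0.661), for Wnt9b Slc26a10 (0.867), Rspo3 (0.889) and Gc (0.913), and for Rspo3 Clec4g (0.697), Fgb (0.742) and Pck1 (0.813). All were higher in liver than in lung, which follows from the choice, because the tissue difference dominates the patterns of these members. Pde2a, a phosphodiesterase, was at 2152 and 1521 CPM in liver control and GOF and at 82.0 and 48.4 CPM in lung. Clec4g, a lectin of sinusoidal endothelium, was at 936 and 633 CPM in liver and 6.69 and 6.15 CPM in lung. Apob, Gc, Fgb and Pck1 are best known from hepatocytes, which the liver libraries also contained.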

How the data were processed

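RNA of CD31-sorted endothelium was sequenced as 100-base paired reads from TruSeq libraries made from 2 ng of RNA, per the labels' protocols. Raw read counts, 1 column a library, are in the authors' deposited tables. Per the submitters' processing notes these came from TopHat2 2.0.11, Bowtie2 2.2.1, SAMtools 0.1.19 and HTSeq 0.6.1 on mm9. The sources used here give neither annotation nor strand setting, so reads of overlapping or antisense genes cannot be told apart. The authors' deposited DESeq2 comparison holds a mean normalised signal, a log2 fold change, its error and test score, and a p-value with its adjusted form. Only its fold changes and adjusted p-values are quoted, and 16 deposited per-sample CPM columns were not used. A line of totals was left out, and 3750 entries share their symbol with another; members were identified by symbol and Ensembl gene.

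CPM are reads per 1000000 reads of the library total, without TMM factors (0.931 to 1.13). RPKM used GENCODE M21 exon lengths. Counts were tested with edgeR 4.0.16 in R 4.3.3 (TMM, filterByExpr with a minimum count of 10 and total of 15, quasi-likelihood test, prior count 0.125, Benjamini-Hochberg threshold 0.05) without pairing. DESeq2 1.42.0, no filter, the letter as a replicate block, and leaving out libraries were alternatives. Scripts were tested on simulated data. Letters were taken to pair libraries within a tissue because deviations from group means correlated within every letter (r of 0.277 to 0.481 in liver over 13858 genes and 0.23 to 0.377 in lung over 14107); the labels do not say what a letter marks. Such correlation was not examined between tissues, so the letter term in comparisons of tissues rests on an untested pairing. P-values without pairing weigh an effect against the spread between these samples, and those with the letter as a term against the spread left after that term.

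The members and lists were chosen with earlier results of these data known. The genes named were the members, called list genes (at most 4 a list), Pecam1, Cdh5 and the genes nearest in pattern to members with a mean of at least 10 CPM. List genes named without a call were chosen after their values were seen. From the lists, 2 genes are not used here.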

Additional observations from a re-analysis of the deposited data

Results flagged for a closer look

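Within groups of 4 libraries, a sample was singled out where its gap to the nearest other sample, divided by the range, passed Dixon's critical value for 4 samples. Chance does this in about 1 in 20 groups, and 91 groups were examined. Among members, Rspo1 was at 1.57 CPM in lung GOF library B, far below the other 3 (statistic 0.843). Rspo4 was at 0 CPM in lung GOF library D, where the other 3 lay at 0.688 to 0.799 CPM (0.861).

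The other 5 cases were marker sums, all in libraries of letter B. The hepatocyte sum was 10.81 CPM in lung GOF B. The stellate sum was 144.1 CPM in liver GOF B. The smooth muscle sum was 212.3 CPM in liver control B. The cholangiocyte sum was 174.3 CPM in liver control B and 81.62 CPM in liver GOF B. The paired liver changes without pair B stand beside the results for Wnt2, Wnt9b and Rspo3.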

How the results depend on the processing

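Over 622 values of members under alternatives, 560 kept their direction and side of the threshold, 15 lost a call, 16 gained one and 31 changed sign. The cause of each move was not tested. In liver, 5 genes were called in the unpaired edgeR test, 27 with no filter, 152 by DESeq2 and 401 with the replicate block, and members called went from 0 to 2 by DESeq2 and 3 with the block. Without pair B, E, F or G the block called 284, 261, 256 and 308 genes and 2, 2, 3 and 2 members. Leaving out 1 library without the block gave 1 to 12 genes. In lung, 0 genes became 13 by DESeq2, 3 with the block, and 5, 3 and 3 with the block without pair B, E or F; leaving out 1 library gave 0 to 1. Between control tissues the block moved 3940 genes to 2066. Between GOF tissues it moved 4033 to 1993, and members from 7 to 4. For the difference of the genotype effects, 1 gene became 46 by DESeq2 and 86 with the block, and 1 to 3 without 1 library.

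Signs turned only for values that were not called. In liver, Wnt5b was -0.607 with the block without pair G and -0.320 to 0.925 without 1 library. Wnt11 was 0.195 with the block without pair E and -1.674 to 0.321 without 1 library. Rspo1 was 0.074 and 0.010 with the block without pair F or G. In lung, Wnt2 was 0.025 with the block without pair F. Rspo2 was -0.594 with the block, -1.833, -1.299 and -0.674 with it without pair B, D or F, and -0.918 to 0.700 without 1 library. Rspo3 was -0.048 with the block, -0.111, -0.276 and -0.618 with it without pair B, D or F, and -0.287 to 0.626 without 1 library. Wnt11 ran from -0.060 to 0.506. Between GOF tissues Wnt5b ran from -0.059 to 0.591. For the difference of effects, leaving out 1 library gave -0.055 to 0.863 for Wnt2, -0.609 to 0.224 for Wnt9b, -1.408 to 0.425 for Wnt9a and -0.160 to 1.835 for Wnt11. The log2 difference of the Wnt9b to Wnt2 ratio in liver ran from -0.22 to 0.10. The scarce members had the widest intervals; how much of that is counting error and how much the spread between libraries was not tested.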
